A study of Mus musculus with 8 samples.

Results

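Etnppl encodes ethanolamine-phosphate phospho-lyase, the enzyme that breaks phosphoethanolamine down, and it is described here beside the enzymes that attach ethanolamine, choline or serine headgroups to phospholipids. Etnppl was chosen from its difference between knockout and wild-type livers in these data, and the other 9 genes were named by their place in the pathway. Of the 10 listed genes, 8 had a probe set annotated with that single gene symbol, among 22180 genes measured in all. Cept1 shared its probe set with another symbol and no probe set was annotated with Etnk2 alone, so neither was analysed here.

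Phosphatidylcholine and phosphatidylethanolamine are the most abundant phospholipids of hepatocyte membranes. In the Kennedy pathways choline or ethanolamine is phosphorylated by a kinase, activated to a CDP form by a cytidylyl transferase and joined to diacylglycerol by a phosphotransferase. Liver also makes phosphatidylcholine by methylating phosphatidylethanolamine through Pemt, and Etnppl removes phosphoethanolamine, the intermediate between the kinase and the cytidylyl transferase of the ethanolamine branch.

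Liver RNA of 8 C57BL/6N mice aged 27 days was hybridised to 1 array per mouse. The 4 knockout mice carried the albumin-Cre transgene (Albumin-Cretg/wt) and floxed alleles of Sco1 (Sco1fl/fl). Sco1 is a copper chaperone for cytochrome c oxidase, and the albumin promoter is active in hepatocytes. Which other liver cells kept the gene was not measured. Of the 4 mice titled wild-type, mice 1 and 3 were genotyped as Cre carriers with 1 floxed allele (Albumin-Cretg/wt:Sco1fl/wt), and mice 2 and 4 as Cre-free with 2 floxed alleles (Albumin-Crewt/wt:Sco1fl/fl), whereas the titles name all 4 as Sco1fl/fl without Cre. All 8 mice therefore carried at least 1 floxed allele.

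Values are log2 expression after robust multi-array averaging (RMA), which normalizes arrays to each other, and differences are knockout minus wild-type on that scale. Sco1 lay at 7.48, 7.62, 7.72 and 7.56 in knockout mice 1 to 4, against 7.84, 7.93, 8.19 and 8.04 in wild-type mice 1 to 4 (difference -0.41 ± 0.093, SE; limma with Benjamini-Hochberg adjustment, adjusted p = 0.0633). Across all genes tested, 96 rose and 159 fell with an adjusted p below 0.05, which is 1.15% of those tested; with each array centred on its median these counts were 81 and 298. The 8 hepatocyte markers, albumin among them, averaged 12.82 to 12.88 on knockout and 12.84 to 12.89 on wild-type arrays, and none passed the test.

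Etnppl's promoter sequence is shown for the gene's wide separation, and Pcyt1a's as that of the only 1 of 9 searched genes with a motif match. Each is the stretch of 250 bases before the annotated transcript start on the plus strand, from RefSeq on GRCm38.p6, written 5′ to 3′. Capitals mark a motif match. The Etnppl stretch lies at chr3:130617198-130617447 and the Pcyt1a stretch at chr16:32430671-32430920.
Etnppl: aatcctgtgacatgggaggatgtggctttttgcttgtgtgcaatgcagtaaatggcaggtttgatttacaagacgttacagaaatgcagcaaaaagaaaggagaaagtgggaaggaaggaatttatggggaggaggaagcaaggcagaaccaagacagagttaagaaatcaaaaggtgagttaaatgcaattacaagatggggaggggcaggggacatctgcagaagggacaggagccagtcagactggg
Pcyt1a: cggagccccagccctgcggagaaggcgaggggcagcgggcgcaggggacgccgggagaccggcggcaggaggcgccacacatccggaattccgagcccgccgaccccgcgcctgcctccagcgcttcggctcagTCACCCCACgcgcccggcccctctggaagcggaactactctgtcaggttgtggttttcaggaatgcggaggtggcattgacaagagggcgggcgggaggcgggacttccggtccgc
The table held 15 windows of 300 bases for 9 of the 10 genes. It held none for Pcyt2, which was therefore not searched. Both strands were searched for 4 motifs that did not overlap in any of these windows. They were the TATA box (TATAAA, in 13.6% of all 32851 windows), the E-box (CACGTG, 7.15%), an ATF4 element of the amino acid response (TGATGNAAT, 0.965%) and a sterol element (TCACNCCAC, 1.242%). The capitals in Pcyt1a are TCACCCCAC, the sterol element, which starts 116 bases before the transcript start. None of the 4 letter patterns occurred in the Etnppl windows, which says nothing of other patterns or of bases outside them.

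Etnppl was higher in every knockout liver than in any wild-type liver. It lay at 11.80, 11.80, 11.87 and 11.78 in knockout mice 1 to 4, against 10.97, 10.89, 10.84 and 10.88 in wild-type mice 1 to 4. The groups did not overlap, and 0.81 log2 units separated the lowest knockout from the highest wild-type array. The means were 11.81 ± 0.042 in knockout and 10.90 ± 0.055 in wild-type livers (SD, n = 4 each). They differed by 0.92 ± 0.070 (SE), or 1.89-fold. No test is given, because this contrast chose the gene. Its difference divided by its standard error, 13.2, was the highest of all genes that were higher in the knockout, followed by Tuba8 at 11.9 and Sult1c2 at 10.9, whereas by the size of the difference alone Etnppl ranked 18. The place by standard error goes with a small spread: the SD within groups was 0.049, and 1.70% of genes had one as small or smaller.

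**Figure D1:**
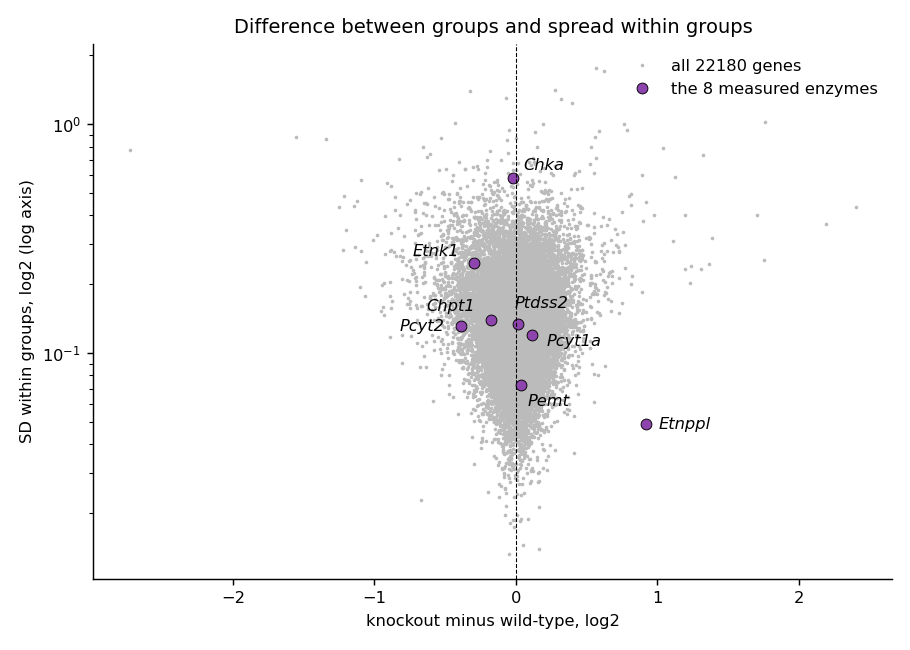
Knockout minus wild-type difference (horizontal axis, log2) against the SD within groups (vertical log axis, log2) for all 22180 genes in grey and the 8 measured enzymes in purple. Etnppl lies at a difference of 0.92 with an SD of 0.049, while Chka lies near a difference of 0 with an SD of 0.59.

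The genotype labels also allow the control classes to be compared. Etnppl averaged 10.91 in the Cre-carrying and 10.89 in the Cre-free controls (2 mice each), a difference of 0.020 ± 0.11 (SE, Cre-carrying minus Cre-free). This is a description, since a gene chosen for its consistency is also chosen for close values among the wild-type arrays. None of the other 7 enzymes passed between the control classes (limma with 3 groups, adjusted p = 0.999956 for each). The lowest unadjusted p among them, Chka's, was 0.124. Over all genes 0 passed in this comparison, or 0%, and 671 of 22180 had an unadjusted p under 0.05 (limma with 3 groups). Between knockout and wild-type livers, with 4 mice each, 3697 of 22180 did (limma). Knockout minus Cre-carrying controls was 0.91 ± 0.091 for Etnppl and knockout minus Cre-free controls 0.93 ± 0.091 (SE). Both values divide the arrays that chose the gene and share the knockout arrays, so their closeness is no separate evidence.

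None of the other 7 measured enzymes passed in either direction between knockout and wild-type livers (limma with Benjamini-Hochberg adjustment over all genes). Beside them, 0.433% of all genes passed as higher and 0.717% as lower in the knockout. The median difference of the 7 was -0.023, against 0.027 over all genes. Of the 7, 1 had groups that did not overlap, against 10.7% of all genes (5.49% with the knockout lower), and the same 1 had an unadjusted p under 0.05, against 16.7% of all genes. That gene is Pcyt2.

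In the ethanolamine branch, Pcyt2 encodes the cytidylyl transferase that acts on phosphoethanolamine, the substrate of Etnppl, and sets the pace of this branch. It lay at 10.78, 11.10, 10.84 and 10.72 in knockout mice 1 to 4, against 11.24, 11.19, 11.20 and 11.36 in wild-type mice 1 to 4. All knockout arrays were below all wild-type arrays, but the highest of them, mouse 2, was only 0.084 below the lowest wild-type array. The difference was -0.39 ± 0.094 (SE), a ratio of 0.766, with a 95% interval of -0.59 to -0.18, and missed the threshold (limma with Benjamini-Hochberg adjustment, adjusted p = 0.0783). Without knockout mouse 2 it was -0.47 at an adjusted p of 0.0433, and over 20 alternative settings the adjusted p lay between 0.0389 and 0.371, with 4 settings passing.

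Etnk1, the ethanolamine kinase that makes phosphoethanolamine, lay at 9.01, 9.19, 9.24 and 9.70 in knockout mice 1 to 4, against 9.33, 9.79, 9.59 and 9.61 in wild-type mice 1 to 4. Knockout mice 1 to 3 were below every wild-type mouse, and knockout mouse 4 lay above 3 of them. The difference of -0.30 ± 0.14 (SE) did not pass (limma, adjusted p = 0.336). Without knockout mouse 4 it was -0.43, again without passing (adjusted p = 0.109). Selenoi, the phosphotransferase that completes phosphatidylethanolamine, averaged 10.89 ± 0.12 in knockout and 10.98 ± 0.15 in wild-type livers (SD, n = 4 each; limma, adjusted p = 0.666).

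**Figure D2:**
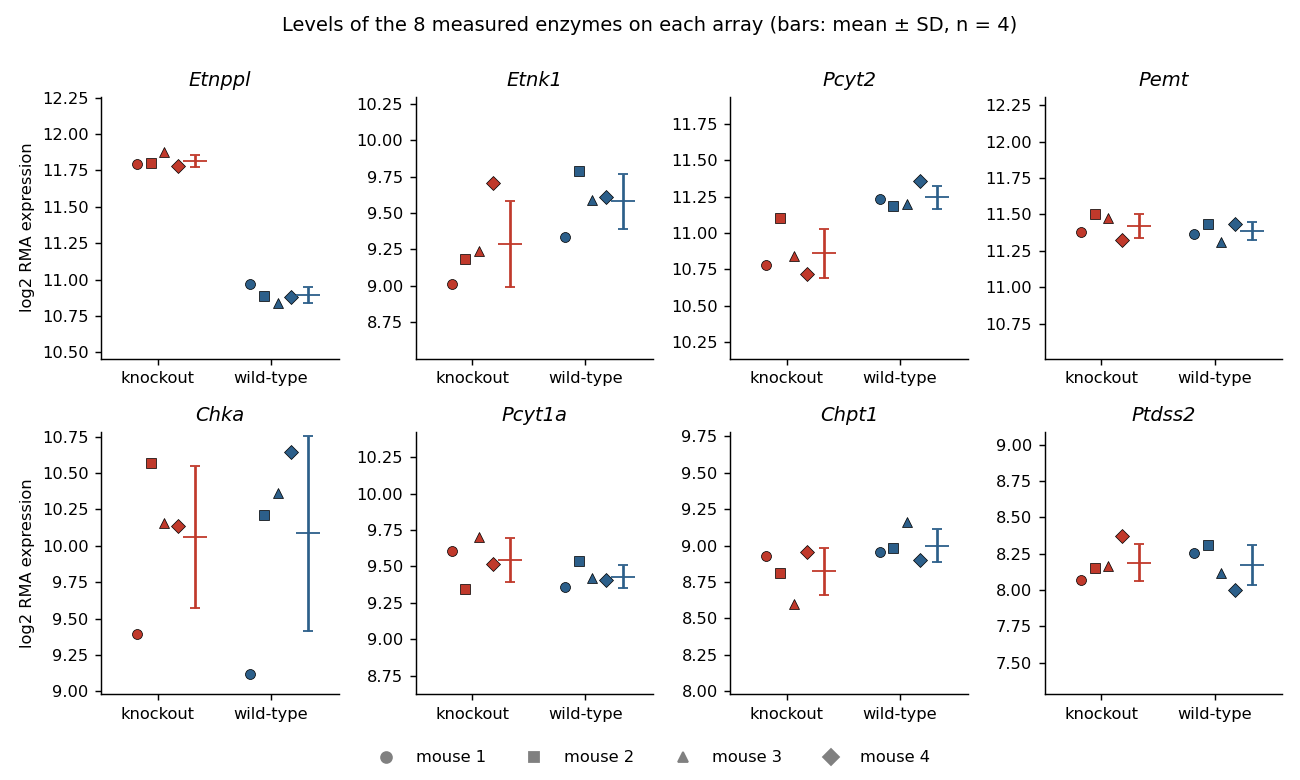
Log2 RMA expression of the 8 measured enzymes on each array, with a marker shape per mouse number and the mean ± SD (n = 4) beside each group. Each panel spans the same number of log2 units. Etnppl shows separated and tight groups, Pcyt2 a narrow gap, and Chka a low mouse 1 in both groups.

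In the choline branch the first enzyme varied most between mice. Chka, choline kinase alpha, lay at 9.39, 10.57, 10.16 and 10.13 in knockout mice 1 to 4, against 9.12, 10.21, 10.36 and 10.64 in wild-type mice 1 to 4. Mouse 1 was the lowest of its group in both genotypes, and the other arrays of both groups overlapped. The difference was -0.023 ± 0.31 (SE), with a 95% interval of -0.71 to 0.66 (limma, adjusted p = 0.979). The SD within groups was 0.59, and 99.7% of genes had one as small or smaller. A dimmer probe set of Chka repeated the low mouse 1, at 4.97 and then 5.26 to 5.57 in knockout mice, against 4.76 and then 5.38 to 5.52 in wild-type mice.

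Dbp, a transcription factor gene driven by the circadian clock and chosen after its values were seen, stood apart in the same 2 livers. It lay at 9.66 in knockout mouse 1 and at 6.87 to 7.33 in the other knockout mice, against 9.86 in wild-type mouse 1 and 7.08 to 7.33 in the other wild-type mice. Whether the state of the clock has a part in the Chka values was not tested, and no collection times are in the labels. Without both mouse 1 arrays, an alternative chosen after seeing the data, the Chka means were 10.29 ± 0.24 and 10.41 ± 0.22 (SD, n = 3 each, knockout then wild-type), a difference of -0.12 ± 0.15 (SE) that did not pass (limma, adjusted p = 0.742). The sign of the Chka difference turned in 7 of 20 alternative settings. Etnppl without these arrays differed by 0.95 ± 0.080 (SE) and Pcyt2 by -0.36 ± 0.12 (SE).

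**Figure D3:**
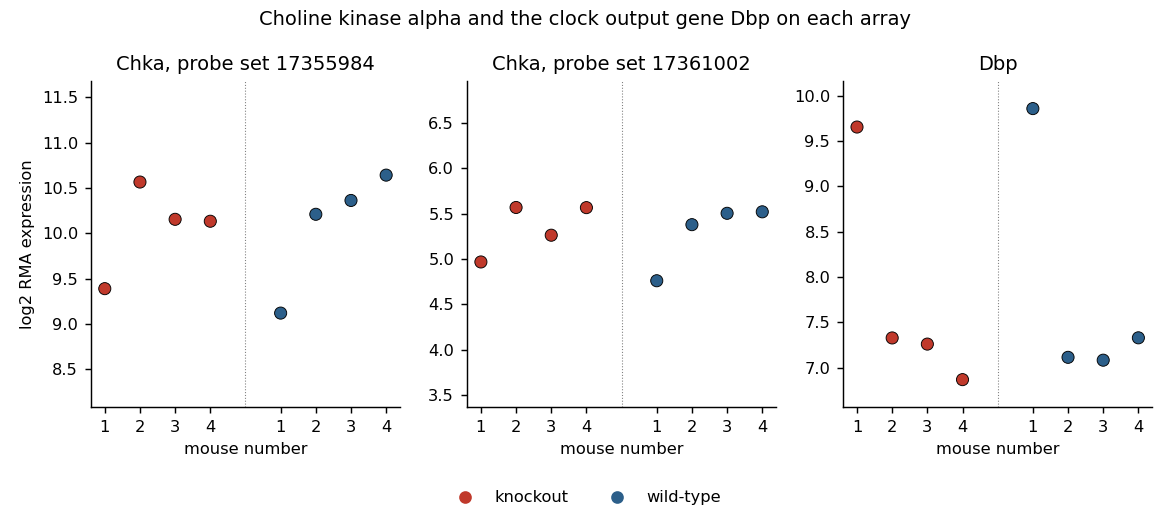
Log2 RMA expression of both Chka probe sets and of Dbp by mouse number, with the knockout mice to the left of the wild-type mice in each panel; all panels span the same number of log2 units. Mouse 1 of either genotype is low in Chka and high in Dbp, at 9.66 in the knockout and 9.86 in the wild-type mouse.

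Pcyt1a, the cytidylyl transferase that activates phosphocholine, lay at 9.61, 9.35, 9.70 and 9.51 in knockout mice 1 to 4, against 9.36, 9.54, 9.42 and 9.41 in wild-type mice 1 to 4. The groups overlapped, and the difference of 0.11 ± 0.090 (SE; 95% interval -0.086 to 0.31) did not pass (limma, adjusted p = 0.557). Chpt1, the choline phosphotransferase, lay at 8.93, 8.81, 8.60 and 8.95 in knockout mice 1 to 4, against 8.95, 8.99, 9.16 and 8.90 in wild-type mice 1 to 4. Its difference was -0.18 ± 0.097 (SE; 95% interval -0.39 to 0.038; limma, adjusted p = 0.39), and the groups overlapped.

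The enzymes that convert finished phospholipids into each other overlapped between groups as well. Pemt, which methylates phosphatidylethanolamine to phosphatidylcholine, lay at 11.38, 11.51, 11.47 and 11.32 in knockout mice 1 to 4, against 11.36, 11.43, 11.31 and 11.44 in wild-type mice 1 to 4. Its 95% interval of -0.13 to 0.20 was the narrowest among the 7 (difference 0.034; limma, adjusted p = 0.852). Ptdss2, which exchanges the ethanolamine of phosphatidylethanolamine for serine, lay at 8.07, 8.15, 8.16 and 8.37 in knockout mice 1 to 4, against 8.26, 8.31, 8.12 and 8.00 in wild-type mice 1 to 4. Its difference was 0.017 ± 0.095 (SE), with a 95% interval of -0.19 to 0.23 (limma, adjusted p = 0.948).

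Of 7 further headgroup genes 5 were measured, and none passed, with differences of -0.090 to 0.050. Phykpl, the paralogue of Etnppl that acts on phosphohydroxylysine, lay at 8.88, 8.93, 8.96 and 8.91 in knockout mice 1 to 4, against 8.99, 8.80, 8.92 and 8.91 in wild-type mice 1 to 4. The groups overlapped, and the 95% interval of its difference was -0.14 to 0.18. Pisd, which makes phosphatidylethanolamine from phosphatidylserine in mitochondria, differed by -0.043 ± 0.090, and Ptdss1, which makes phosphatidylserine from phosphatidylcholine, by -0.046 ± 0.095 (SE). Pcyt1b, the second form of the phosphocholine-activating enzyme, was dim, at 4.797 to 5.06 on knockout and 4.74 to 5.01 on wild-type arrays.

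**Figure D4:**
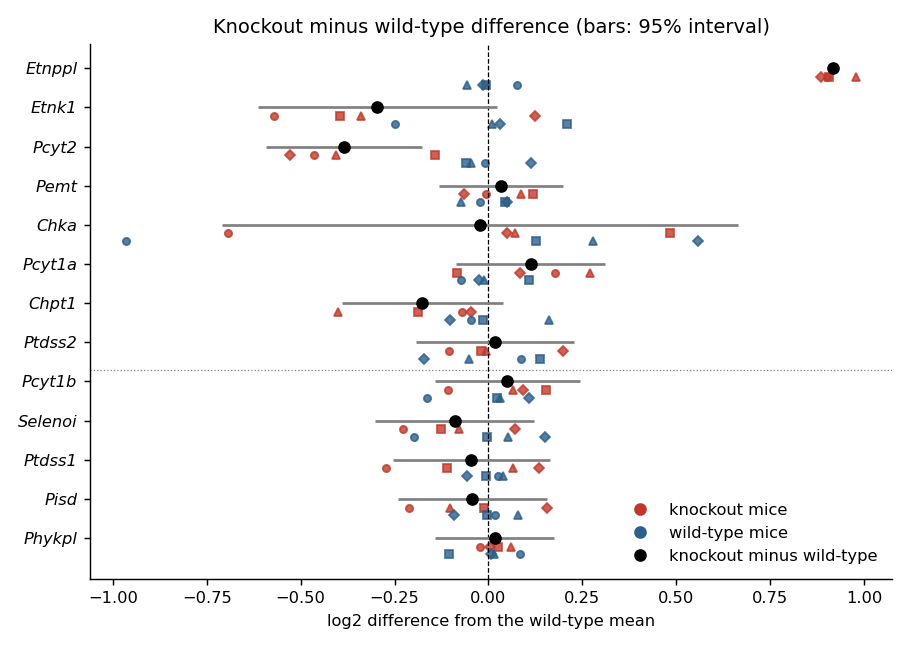
Knockout minus wild-type difference (black points, log2) with 95% intervals for the measured enzymes and, below the dotted line, 5 further headgroup genes; Etnppl has no interval because this contrast chose it. Red and blue markers give each knockout and wild-type mouse relative to the wild-type mean, with shapes per mouse number. The interval of Pcyt2, -0.59 to -0.18, lies wholly below 0, and the others include 0.

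Lists of other phospholipid genes held 100 genes by function, of which 95 were measured, those 5 included. Of the 95, 1 rose and 1 fell, beside 0.433% and 0.717% of all genes, and 93 did not pass. Their median difference was -0.0028, against 0.027 over all genes. The groups did not overlap for 6 of them, or 6.32%, beside 10.7% of all genes.

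Plpp2, a phosphatase that makes diacylglycerol from phosphatidic acid, rose by 0.53 ± 0.098 (SE; limma with Benjamini-Hochberg adjustment, adjusted p = 0.0326). It lay at 11.01, 10.79, 11.03 and 11.07 in knockout mice 1 to 4, against 10.53, 10.54, 10.49 and 10.21 in wild-type mice 1 to 4. Pla2g6, a calcium-independent phospholipase A2, fell by 0.40 ± 0.081 (SE; limma, adjusted p = 0.0437). It lay at 8.52, 8.63, 8.37 and 8.45 in knockout mice 1 to 4, against 8.82, 8.96, 8.83 and 8.95 in wild-type mice 1 to 4. Neither gene's groups overlapped, but each call was kept only when knockout mouse 2 was the array left out. With any other single array left out the adjusted p was 0.055 to 0.086 for Plpp2 and 0.0662 to 0.122 for Pla2g6.

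In the remaining lists nothing passed. Pnpla6, a phospholipase that takes phosphatidylcholine apart to glycerophosphocholine, lay at 7.85, 8.10, 7.99 and 7.89 in knockout mice 1 to 4, against 8.28, 8.43, 8.40 and 8.78 in wild-type mice 1 to 4. Its groups did not overlap, and the difference of -0.51 ± 0.11 (SE) missed the threshold (limma, adjusted p = 0.0543). Flvcr2, a choline transporter, differed by 0.46 ± 0.13 (SE; adjusted p = 0.11) and led 9 measured transport genes. Sgpl1, which releases phosphoethanolamine from sphingosine phosphate and so makes the substrate of Etnppl, lay at 10.11 to 10.33 in knockout and 9.80 to 10.12 in wild-type livers, a difference of 0.21 ± 0.090 (SE; adjusted p = 0.278). Dmgdh, of choline oxidation, differed by 0.16 ± 0.082 among 13 measured genes (adjusted p = 0.365), and Tmem189, the plasmalogen desaturase gene, by 0.31 ± 0.13 among 5 ether lipid genes (SE; adjusted p = 0.26).

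**Figure D5:**
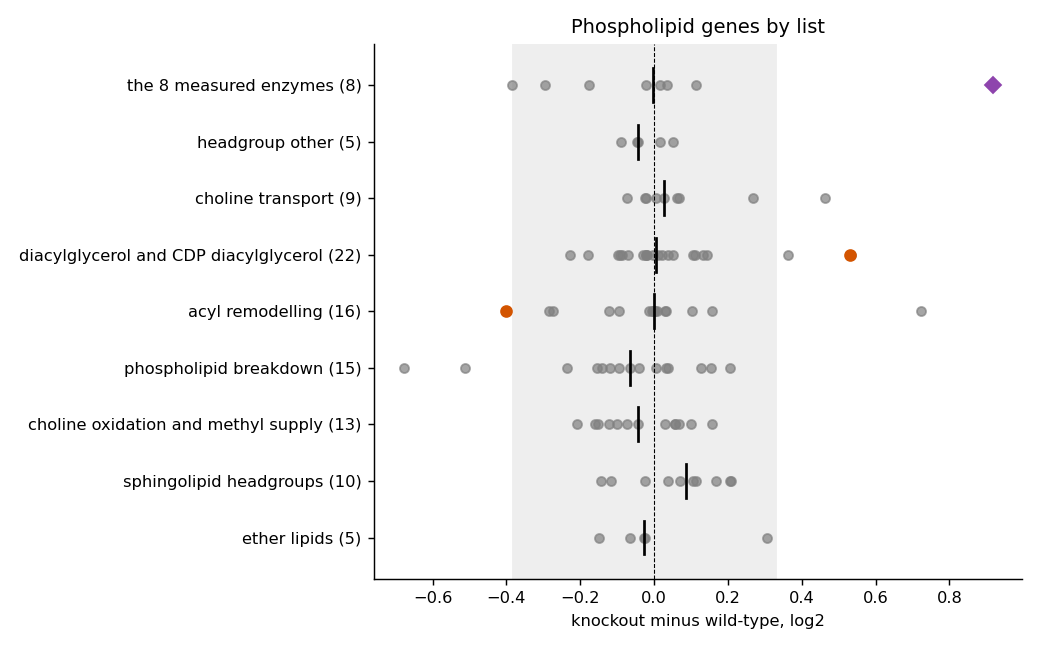
Knockout minus wild-type difference (log2) of each gene by list, with the number measured in brackets, medians as black lines and genes past the threshold in orange; the purple diamond is Etnppl, shown without a test. The grey band holds 95% of all genes, from -0.38 to 0.33. Plpp2 and Pla2g6 are the orange points.

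The genes whose pattern over the 8 arrays was most like that of Etnppl were Ctsz, Ankrd29, Glis3, Tlr9 and Tll2, with Pearson r of 0.979 to 0.991 across these arrays. All 5 had groups that did not overlap, and Etnppl was chosen for that separation. Their gaps between groups were 0.11 to 0.39 log2 units, against 0.81 for Etnppl. Ankrd29, Glis3 and Tll2 were dim, at 5.65 to 6.60 beside array medians of 5.79 to 5.89, and did not pass (limma, adjusted p = 0.142 to 0.238). Ctsz and Tlr9 did, but likeness to Etnppl picks genes that separate the groups. Ctsz, a lysosomal cathepsin, lay at 12.47, 12.54, 12.58 and 12.58 in knockout mice 1 to 4, against 12.08, 12.01, 11.92 and 11.96 in wild-type mice 1 to 4. The differences of the other 4 were 0.17 to 0.41, smaller than Etnppl's.

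Markers of other cell types moved with the groups in part. The 6 measured lymphocyte markers were all higher on average in the knockout, with mean levels of 6.17 to 6.61 on knockout and 5.98 to 6.12 on wild-type arrays. The 5 muscle markers were likewise all higher, at 5.86 to 5.93 on knockout and 5.601 to 5.74 on wild-type arrays. Both lists were dim on average: array medians were 5.79 to 5.89, close to the muscle levels and little below the lymphocyte levels. Whether RNA of these cells rose in the knockout livers was not tested. All 8 macrophage and all 5 endothelial markers were higher on average as well, but their mean levels overlapped, at 9.37 to 9.92 on knockout and 9.23 to 9.82 on wild-type arrays for macrophages and at 10.04 to 10.16 on knockout and 9.87 to 10.05 on wild-type arrays for endothelium. In each of these 4 lists 1 marker had groups that did not overlap, with the knockout higher, beside 5.26% of all genes. Of all 22180 genes, 12676 were higher on average in the knockout. The mean levels also overlapped for stellate, cholangiocyte, erythroid and pancreatic markers. No marker passed the test. The part of these cells in the values of Etnppl or Pcyt2 was not tested. In whole liver a change in the number of cells of a type and a change in RNA per cell cannot be told apart.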

How the data were processed

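Total RNA of 8 mouse livers was labelled and hybridised to Affymetrix whole-transcript arrays, per the labels. Per the submitters' processing notes, the authors made the deposited values with RMA in oligo version 1.24. They are taken as log2, which the labels do not state, from the method and from the deposited range of 1.28 to 13.88. The chip definition and genome build are not given in the sources used here. RMA equalises the arrays' distributions of probe intensities before these are summarized, and it compresses large differences. The deposited probe set values can therefore still differ in level between arrays.

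Of 39137 probe sets, 23521 had 1 gene symbol in the platform annotation, 1814 had several and 13802 had none. Those with 1 symbol were used, and the brightest stood for a gene, giving 22180 genes. Array medians were 5.79 to 5.89. Precision depends on the few arrays per group.

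Differences were fitted over all genes by limma's two-sided moderated test (version 3.58.1, in R 4.3.3), with Benjamini-Hochberg adjustment and a threshold of 0.05. The control classes were compared in a fit with 3 groups. The limma steps were tested on simulated data. Errors of means are SDs and errors of differences limma standard errors. The labels do not name litters, so p-values rest on the spread between these mice. In the moderated test each gene's variance is also drawn towards a value shared by all genes. For a gene of small spread, the standard error is therefore larger than its own SD would give.

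The genes described and the gene lists were chosen with earlier results of these data known. Named beside them are Sco1, up to 4 genes past the threshold per list or else the gene of smallest adjusted p, and the 5 genes of highest Pearson r with Etnppl, leaving out predicted, Rik, small RNA and receptor family symbols. Tafazzin and Peds1 were matched under older symbols after the files were seen. Alternatives were another variance model, renewed quantile normalization, centring, 2 filters on dim genes, other treatments of probe sets, a replicate block, array weights, each control class alone and each array left out.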

Additional observations from a re-analysis of the deposited data

How the results depend on the processing

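Etnppl differed by 0.88 to 0.96 over 20 alternative settings. With 1 array left out at a time, the counts over all genes were 29 to 65 higher and 60 to 119 lower, those of the 7 other enzymes 0 higher and 0 to 1 lower, and those of the other phospholipid genes 0 to 1 in each direction. Pcyt2 was the enzyme lower in these counts. With a trended robust variance, all genes gave 159 higher and 300 lower, the enzymes 1 lower, and the other phospholipid genes 2 higher and 2 lower. With arrays centred on their medians there were 298 lower genes over all, 1 enzyme lower and 2 other phospholipid genes lower. With only the brighter genes tested there were 319 lower genes over all, 1 enzyme lower, and 3 other phospholipid genes higher and 2 lower. With genes above 5 on at least 4 arrays, the counts were 148 higher and 286 lower over all, and 2 and 2 among the other phospholipid genes. Array weights gave 245 lower genes over all and 2 other phospholipid genes higher. Renewed quantile normalization left 0 other phospholipid genes lower. Against the Cre-free controls alone there were 7 higher and 9 lower genes, and against the Cre-carrying controls alone 4 higher and 2 lower, with 0 other phospholipid genes in either; fewer arrays entered both fits. Without both mouse 1 arrays there were 28 higher and 37 lower genes, and 0 other phospholipid genes lower. Plpp2 lost its call (limma, adjusted p = 0.108). The 1 other phospholipid gene called higher was Pla2g12a (adjusted p = 0.0225), which had not passed with all arrays (adjusted p = 0.0624). The cause of the other changes was not tested. Mouse numbers did not pair mice 2 to 4, whose correlations of deviations were -0.022, 0.031 and -0.102. For mouse 1 the correlation was 0.273, the highest of any knockout and wild-type mouse. All other such pairs lay between -0.148 and 0.116. With the mouse number as a replicate block, 68 genes were higher and 142 lower, and 0 other phospholipid genes were lower; Plpp2 lost its call here too (adjusted p = 0.0671), and the 1 gene higher was again Pla2g12a (adjusted p = 0.0244). The control classes gave 0 calls in each direction under all 16 settings run for them. With 4 arrays a group, differences as small as those of Pemt or Ptdss2 could not be detected.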

Other observations

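Several phospholipid genes outside the rule for named genes had separated or wide differences without passing the test, and are given as values chosen after they were seen; groups did not overlap for 6.32% of the listed genes and for 10.7% of all genes. Gpat3, an acyltransferase of glycerol phosphate, lay at 7.18 to 7.85 in knockout and 6.85 to 7.02 in wild-type livers (limma with Benjamini-Hochberg adjustment, adjusted p = 0.0792). Abhd3, a phospholipase, lay at 10.09 to 10.17 in knockout and 10.29 to 10.39 in wild-type livers (adjusted p = 0.125), and Lpgat1, a lysophospholipid acyltransferase, at 10.21 to 10.47 in knockout and 10.48 to 10.81 in wild-type livers (adjusted p = 0.182). Pla2g12a, a secreted phospholipase A2, had the highest difference of the lists, 0.72 ± 0.16 (SE; adjusted p = 0.0624), with wild-type mouse 1 at 7.37 and the other wild-type mice at 6.58 to 6.67, and passed without wild-type mouse 1 (0.91, adjusted p = 0.00786). Gpcpd1, which splits glycerophosphocholine into choline and glycerol phosphate, had the lowest, -0.68 ± 0.27 (SE; adjusted p = 0.238), at 9.02 to 9.69 in knockout and 9.43 to 10.79 in wild-type livers. Its control classes averaged 10.58 in Cre-carrying and 9.57 in Cre-free mice (2 each), which did not pass (limma with 3 groups, adjusted p = 0.999956). The knockout difference was -1.18 ± 0.20 against Cre-carrying but -0.17 ± 0.20 against Cre-free controls (SE).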
